A study of Mus musculus with 4 samples.

Results

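The genes described here are 10 members of the Slc2a family, which encode the facilitative glucose transporters, the GLUT proteins. They were taken by name, as the genes whose Ensembl ID, with its version left off, maps to Slc2a1, Slc2a2, Slc2a3, Slc2a4, Slc2a6, Slc2a8, Slc2a9, Slc2a10, Slc2a12 or Slc2a13. They are 10 of 20296 genes in the comparison table, which holds 12 Slc2a genes in all. The remaining Slc2a genes, Slc2a5 and Slc2a7, are given for comparison only. An adjusted p was available for 6 of the 10 genes, Slc2a1, Slc2a3, Slc2a4, Slc2a6, Slc2a8 and Slc2a13, and for 16361 genes of the table.

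Transcripts were compared between epiblast-like stem cells (EpiLSC) and naive embryonic stem cells (nESC) of the mouse. EpiLSC were collected after 3 days in N2B27 medium with activin A at 20 ng/ml and the growth factor bFGF at 12 ng/ml, and nESC were held in 2i/LIF, a medium of kinase inhibitors and the cytokine LIF. Each state had 2 samples, 1 from the line R1 and 1 from the line E14TG2a (labelled E14), and the labels name no further allele or agent. Each line was sampled 1 time per state, so any spread within a state includes the difference between R1 and E14. Whether the authors' model held a term for the line, which would bear on the standard errors, is not stated in the labels. The effect of the medium cannot be told apart from that of the state.

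The SLC2 proteins carry sugars across membranes down their concentration gradient, without spending energy. They fall into 3 classes by sequence: class I holds the classical glucose carriers, class II carriers of fructose and urate, and class III carriers that often sit on membranes inside the cell. Glucose that has entered is trapped by hexokinases, which phosphorylate it. In the mouse blastocyst the proteins of Slc2a1 and Slc2a3 are the known main routes of glucose entry.

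All values come from 1 table of the authors, which gives for each gene a mean of normalized counts over the 4 libraries, a log2 fold change with its standard error (SE), and p-values from a DESeq2 Wald test. No level labelled by sample was analysed here. Splitting that mean by the fold change gives a level per state, which is called implied and has no SD. The table does not name its direction. Positive values were read as higher in EpiLSC, because all 5 genes of a formative list (Fgf5, Otx2, Dnmt3b, Pou3f1, Dnmt3a) were positive and all 7 of a naive list (Zfp42, Klf4, Esrrb, Prdm14, Tfcp2l1, Nr5a2, Tbx3) negative, so these lists are no independent check of the labels. Total reads per library are unknown, and the size factors that the low means imply lay between 0.735 and 1.28.

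Of the 6 transporter genes with an adjusted p, 1 fell in EpiLSC, Slc2a3, and 0 rose (the authors' DESeq2 Wald test, adjusted p under 0.05). Over all genes tested, 6.23% fell and 7.67% rose. At an unadjusted p under 0.05, Slc2a3 was again the 1 fall and 0 of the 6 rose, against 9.68% falls and 12.1% rises (21.7% in all) over all genes tested. Slc2a3 was also the 1 call among the members at an adjusted p under 0.01 (background 4.41% fell, 5.37% rose, 9.78% in all). The same held with adjustment over every gene of the table (background 4.75% fell, 5.84% rose, 10.6% in all) and among genes with a mean of at least 100 (background 5.74% fell, 5.94% rose, 11.7% in all). The median log2 fold change of the 6 genes was 0.29, beside 0.02 over all genes tested. The family thus held 1 abundant gene that fell, 1 of a lower but still high level that was not called, and 8 genes at low levels. In bulk RNA, fewer cells of a type and less RNA per cell cannot be told apart.

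**Figure D1:**
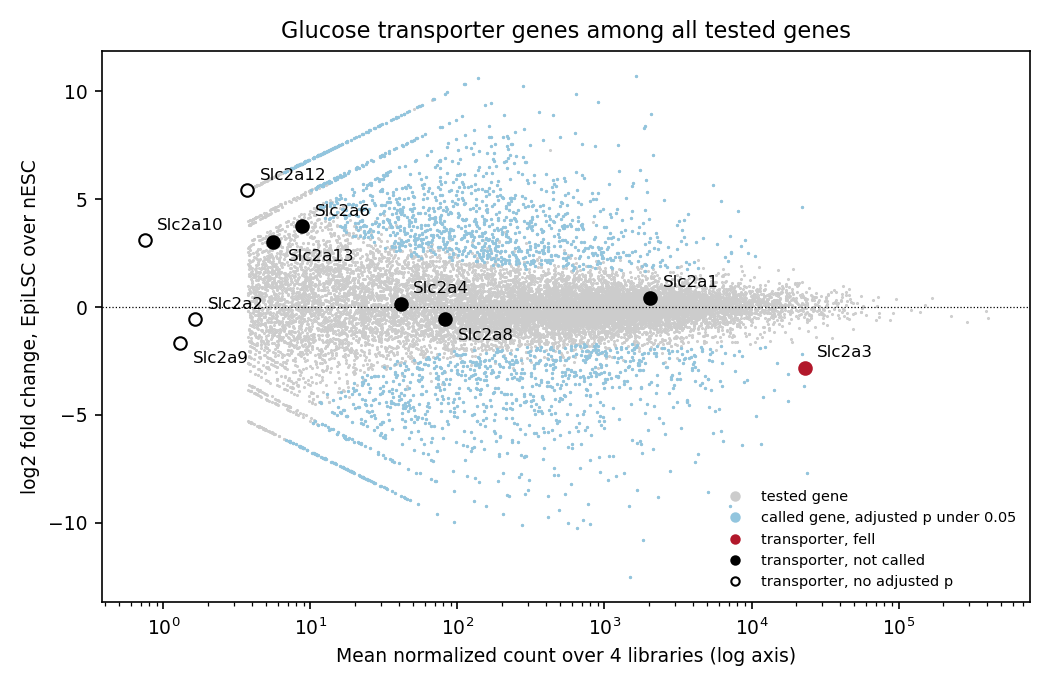
Mean normalized count (x, log axis) against log2 fold change of EpiLSC over nESC (y) for all tested genes, with the 10 transporter genes marked. Slc2a3 has the highest mean of the 10 and lies below 0, Slc2a1 close to 0, and the other 8 genes have means below 100.

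Slc2a3 encodes GLUT3, a carrier with high affinity for glucose that is best known from neurons. It had the highest level of the family: its mean was 23032 normalized counts in the authors' deposited table, rank 137 of the 16361 tested genes. The implied level was 5752 normalized counts in EpiLSC, against 40312 in nESC. Per kilobase of exon these are 794 in EpiLSC and 5564 in nESC. In the authors' deposited table its log2 fold change was -2.81 (SE 0.67, adjusted p 0.000461, DESeq2 Wald test), which is a 7.01-fold fall with a 95% interval from 2.82 to 17.4-fold. Tested against a change of more than 2-fold either way, the adjusted p was 0.0878, so a fall larger than 2-fold was not called. By that rule 0 members were called, beside 3.07% falls and 3.84% rises over all genes tested (6.91% in all).

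Of 203 other protein-coding genes with a mean within a factor of 1.5 of that of Slc2a3, 5 fell (2.46%) and 1 rose. Over all genes tested, the shares were 6.23% falls and 7.67% rises. The 3 of them with the nearest fold change were Zfp980 (log2 fold change -3.12, SE 0.82), Slc25a36 (-2.16, SE 0.75), a mitochondrial carrier gene, and Fn1 (-3.64, SE 1.05), the fibronectin gene, in the authors' deposited table. Likeness here means distance in this single fold change, from 0.31 to 0.84 on the log2 scale.

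Slc2a1 encodes GLUT1, the carrier behind basal glucose uptake in most cells. Its mean in the authors' deposited table was 2051 normalized counts, rank 3011 of the tested genes. The implied level was 2358 normalized counts in EpiLSC and 1744 in nESC, or 673 per kilobase of exon in EpiLSC and 497 in nESC. The log2 fold change in the authors' deposited table was 0.44 (SE 0.88, adjusted p 0.933, DESeq2 Wald test). Its 95% interval ran from -1.28 to 2.15, from a fall to 0.411 of the nESC level to a 4.45-fold rise. At this standard error a log2 fold change of at least 2.37 was needed for a call, so a smaller change of Slc2a1 could not have been called. The 95% intervals of Slc2a1 and Slc2a3 did not overlap; the difference between the genes was not tested.

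**Figure D2:**
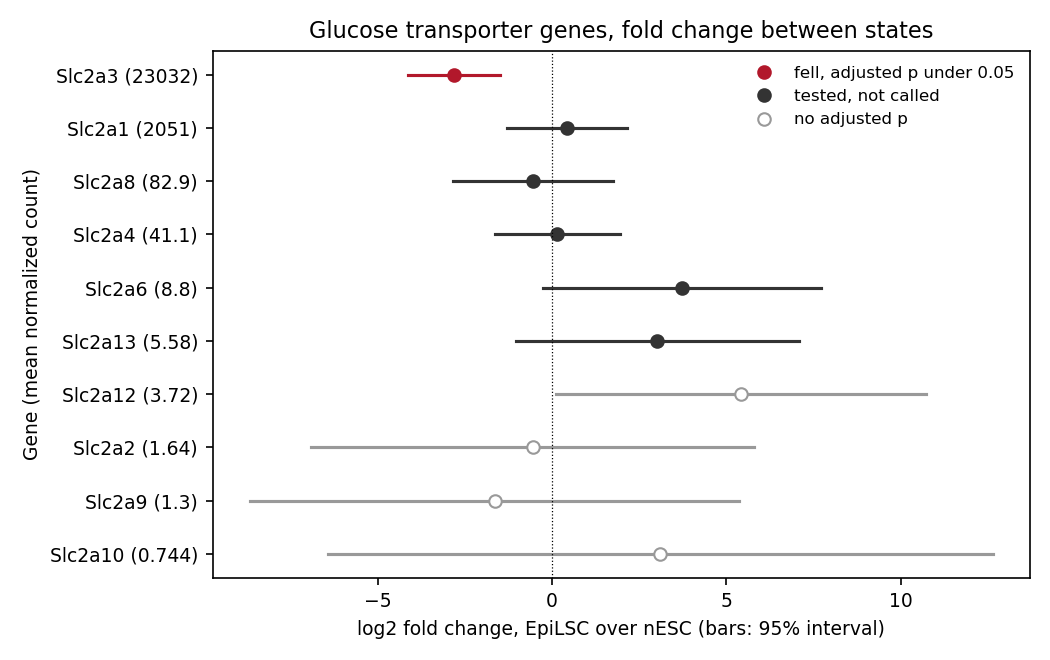
Log2 fold change of EpiLSC over nESC (x) with its 95% interval for each transporter gene, ordered by mean normalized count (in brackets, highest at the top). The interval of Slc2a3 lies wholly below 0, from -4.12 to -1.50, while those of the other 5 tested genes span 0; of the genes without an adjusted p, that of Slc2a12 starts at 0.12.

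Slc2a1, Slc2a3 and Slc2a4 are close relatives, so it was checked whether reads could be counted for the wrong one. The coding sequences of the 10 genes (GENCODE M21 transcripts) were 57.5% to 70.5% identical over aligned bases in the 45 pairs, and Slc2a1 with Slc2a3 was the most alike pair.

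The longest identical run of any pair, 29 bases, was that of Slc2a3 with Slc2a4. It is shown in capitals with 30 bases on either side, because a shared stretch is where reads of members could be confused. Positions count from the first base of the start codon, and the stretches span 1141 to 1229 of Slc2a3 and 1195 to 1283 of Slc2a4.
Slc2a3: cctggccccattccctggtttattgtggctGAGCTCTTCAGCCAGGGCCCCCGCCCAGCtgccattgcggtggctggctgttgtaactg
Slc2a4: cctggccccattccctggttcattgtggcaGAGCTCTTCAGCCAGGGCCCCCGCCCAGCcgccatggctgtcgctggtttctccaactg

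Coding sequence identical over 30 or more bases was thus found in no pair of members. Only exact matches were scored, so stretches alike but for a few mismatches are not covered. Over whole transcripts, 90 of the 7286 different 50-base words of Slc2a3 (1.24%) also occurred in transcripts of 89 other genes, none of them a member. For Slc2a10 this held for 1 word, shared with Myh7, for Slc2a13 for 2 words, shared with Slco1a5, and for the other 7 members for 0. Words were compared on the transcribed strand only, so sequence shared with genes on the opposite strand is not covered.

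The make-up of the transporter transcripts differed between the states. Summed over the 10 genes, the implied level per kilobase of exon was 1509 in EpiLSC and 6105 in nESC, 4.05-fold lower in EpiLSC. Slc2a3 made up 52.6% of that sum in EpiLSC and 91.1% in nESC. Slc2a1 made up 44.6% in EpiLSC and 8.15% in nESC, and the other 8 genes together 2.79% in EpiLSC and 0.709% in nESC. The level of Slc2a3 was 1.18 times that of Slc2a1 in EpiLSC, against 11.2 times in nESC. With Slc2a3 left out, the direction turned: the sum was then 715 in EpiLSC and 541 in nESC. These sums are descriptions without a test.

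The ratio of the leading genes depends on the length used. Each state had 2 of the 4 samples, so equal weights of the states in the mean follow from the design. Under a weighting of EpiLSC of 40 to 60, which this design does not have, Slc2a3 would stand at 0.996 times Slc2a1 in EpiLSC. The same weighting would put it at 9.44 times in nESC. Length matters because annotated transcripts of Slc2a3 include one that keeps an intron. Over the longest protein-coding transcript, 3959 bases for Slc2a3 and 3260 for Slc2a1, Slc2a3 stood at 2.01 times the level of Slc2a1 in EpiLSC and its share of the sum was 65.0% in EpiLSC, against 94.4% in nESC.

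**Figure D3:**
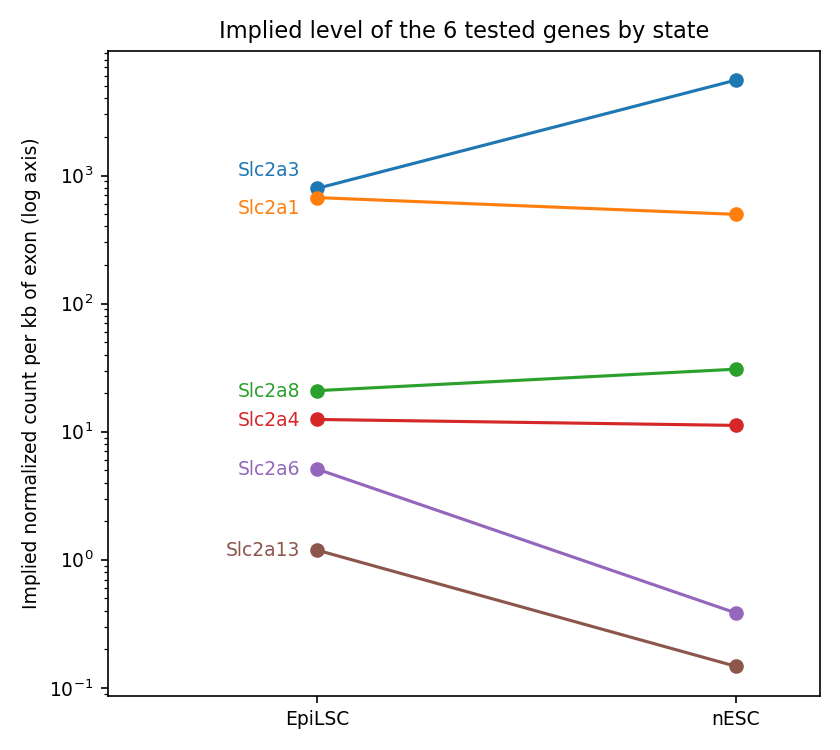
Implied normalized count per kilobase of exon (y, log axis) in EpiLSC and nESC for the 6 transporter genes with an adjusted p; each line joins the 2 implied levels of 1 gene and carries no error. Slc2a3 and Slc2a1 lie close together in EpiLSC and 11.2-fold apart in nESC; the nESC levels of Slc2a6 and Slc2a13 rest on implied counts below 3.

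For the 8 genes with means below 100, the whole reads behind each mean could be recovered for the 4 libraries, which are not assigned to samples or states here. A mean is the sum of the 4 libraries' reads, each weighted by its own fixed step, and only 1 set of whole reads matched each of the 8 means within a tolerance of 1e-10 reads. Read counts are therefore given from the lowest to the highest library, and that order is not an order of states.

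**Figure D4:**
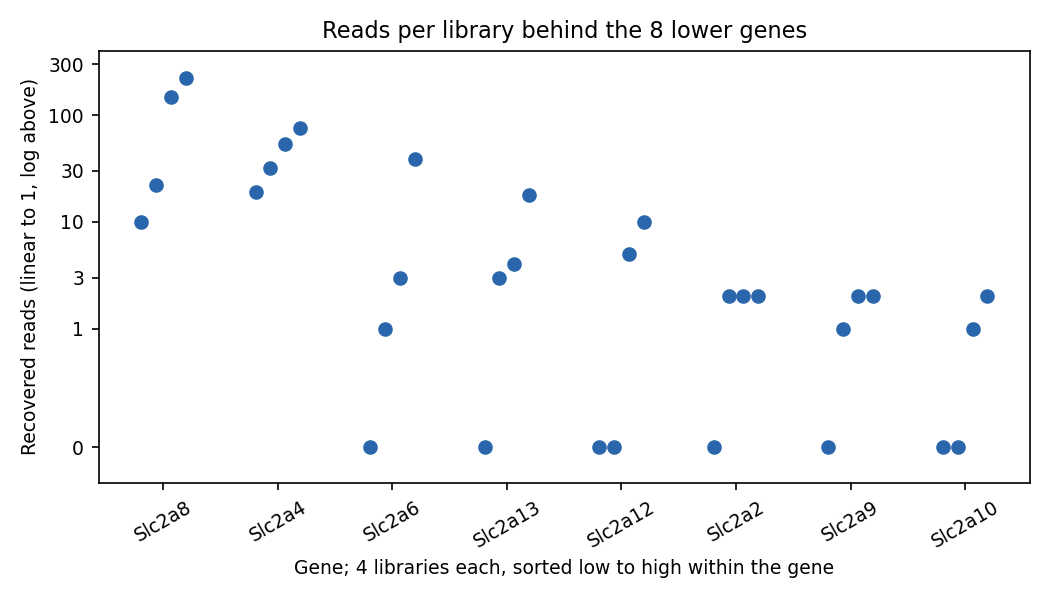
Recovered reads per library (y, linear to 1 and logarithmic above) for the 8 transporter genes with means below 100, 4 libraries each, sorted from low to high within the gene. Slc2a4 and Slc2a8 had reads in all 4 libraries, while 39 of the 43 reads of Slc2a6 lay in 1 library.

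Slc2a4 encodes GLUT4, the carrier that insulin brings to the surface of muscle and fat cells. It had 19, 32, 53 and 75 reads in the 4 libraries, or 25.8, 36.5, 41.5 and 60.6 normalized counts. The libraries thus differed by 2.34-fold at most. The implied level was 43.3 normalized counts in EpiLSC and 38.9 in nESC, and the authors' deposited table put the log2 fold change at 0.15 (SE 0.92, adjusted p 0.983, DESeq2 Wald test). The last member of class I, Slc2a2, encodes GLUT2, the low-affinity carrier of liver and pancreatic beta cells. It had 6 reads in all, spread as 0, 2, 2 and 2, and no adjusted p.

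Slc2a8 encodes GLUT8, a class III carrier of membranes inside the cell that is known from the mouse blastocyst. It had 10, 22, 149 and 220 reads, or 13.6, 25.1, 120 and 172 normalized counts, so that 2 libraries were low, 2 were high, and the highest was 12.7 times the lowest; this split is not a comparison of the states. The implied level was 67.1 normalized counts in EpiLSC and 98.7 in nESC. In the authors' deposited table its log2 fold change was -0.56 (SE 1.17, adjusted p 0.938, DESeq2 Wald test). That standard error was larger than that of Slc2a4, although Slc2a8 had 401 reads in all and Slc2a4 had 179.

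Slc2a6 encodes GLUT6, a carrier found on lysosomes. Its reads were 0, 1, 3 and 39, so 90.7% of them came from 1 library. The implied level was 16.4 normalized counts in EpiLSC and 1.23 in nESC, and the log2 fold change in the authors' deposited table was 3.73 (SE 2.03, adjusted p 0.281, DESeq2 Wald test). Slc2a13 encodes HMIT, which carries myo-inositol together with protons and is therefore facilitative by family only. Its 25 reads were spread as 0, 3, 4 and 18, with an implied level of 9.93 normalized counts in EpiLSC and 1.23 in nESC. Its log2 fold change was 3.01 in the authors' deposited table (SE 2.07, adjusted p 0.480, DESeq2 Wald test). At their standard errors, calls would have needed log2 fold changes of 5.49 for Slc2a6 and 5.59 for Slc2a13.

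Slc2a12 encodes GLUT12, a carrier of class III that is expressed in heart, muscle and fat. All 15 of its reads came from 2 libraries, with 5 and 10 reads, and the other libraries had 0. Its log2 fold change in the authors' deposited table was 5.42 (SE 2.70) with an unadjusted p of 0.0449, and its mean of 3.72 was just below the level at which adjusted p-values begin, 3.74. With adjustment over every gene of the table its adjusted p was 0.265. At an unadjusted p under 0.05, Slc2a12 was 1 rise among all 10 members, and Slc2a3 1 fall, against 9.76% rises and 7.8% falls over all genes of the table (17.6% in all). The 3' end of Slc2a12 overlaps that of Tbpl1 on the other strand, whose mean was 1436 normalized counts (log2 fold change 0.60, SE 0.77) in the authors' deposited table. The strand setting of the counting is unknown, so reads of that overlap could not be sorted by strand here. The implied level of Tbpl1 was 1732 normalized counts in EpiLSC and 1139 in nESC, while Slc2a12 had 0 reads in 2 libraries. No reads of Tbpl1 were thus counted for Slc2a12 in those 2 libraries. Whether any of the 15 reads came from Tbpl1 was not tested.

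Slc2a10, whose human counterpart is mutated in arterial tortuosity syndrome, had 3 reads in all, in 2 libraries. Slc2a9 encodes GLUT9, a carrier of urate and the 1 class II gene among the 10. It had 5 reads in all, in 3 libraries. Neither had an adjusted p, and at this depth no difference between the states was detectable for either or for Slc2a2. In class II outside the 10, the fructose carrier gene Slc2a5 had 9, 23, 26 and 32 reads and changed by -0.70 on the log2 scale (SE 1.08, adjusted p 0.894, DESeq2 Wald test) in the authors' deposited table. Slc2a7 had 0, 2, 12 and 33 reads. Its log2 fold change was -4.43 (SE 1.79, adjusted p 0.0848, DESeq2 Wald test) in the authors' deposited table, and it was not called.

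The position of Slc2a3 sets it beside genes of the pluripotent state. Among the 4 protein-coding genes on either side of each member in GENCODE M21 (order only, on GRCm38), a window chosen after the values were known, Slc2a3 had 7 neighbours with an adjusted p. Of these, 4 fell and 0 rose, beside the 6.23% of all genes tested that fell. On chromosome 6 the order is Apobec1, Gdf3, Dppa3, Nanog, Slc2a3, Foxj2, C3ar1, Necap1 and Clec4a1. Nanog, a core factor of pluripotency and the gene next to Slc2a3, fell, with a log2 fold change of -2.25 (SE 0.75) in the authors' deposited table. Dppa3, a maternal factor that protects DNA methylation in the early embryo, fell by 6.78 (SE 1.52), and Gdf3, a growth factor gene of the TGF-beta family, by 3.35 (SE 0.62), in the authors' deposited table. Apobec1, beyond Gdf3, did not pass (-0.66, SE 0.74), nor did Foxj2 (0.10, SE 0.82) or Necap1 (-0.80, SE 0.67) on the other side, in the authors' deposited table. Clec4a1, at the far end of the window, was called in the authors' deposited table with -6.22 (SE 2.23), on a mean of 7.22. Falls around the other 9 members numbered from 0 to 2 in each window.

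**Figure D5:**
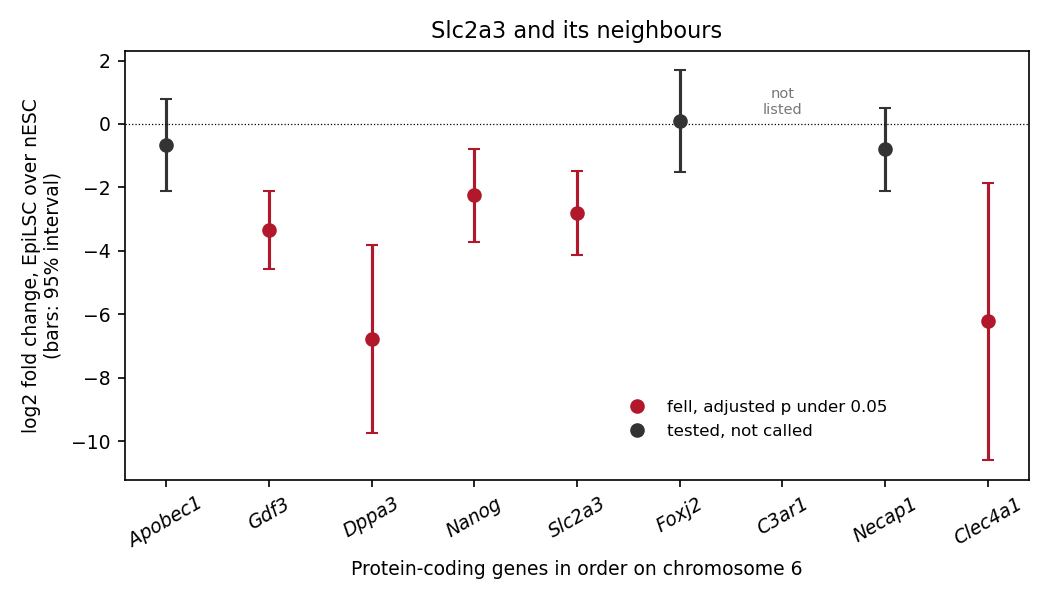
Log2 fold change of EpiLSC over nESC (y) with its 95% interval for Slc2a3 and the 4 protein-coding genes on either side, in chromosomal order (x, not to scale). Gdf3, Dppa3, Nanog and Slc2a3, which lie next to each other, were all called as fallen, while Apobec1 and Foxj2, which flank them, were not.

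A promoter sequence of RefSeq (GRCm38.p6) was matched for 8 of the 10 members; Slc2a3 and Slc2a4 had no entry. That of Slc2a1 is shown because Slc2a1 has the second highest level of the family and is a known target of hypoxia factors and Sp1. It spans chr4:119108495-119108794 on the plus strand, from 250 bases before to 50 after the annotated start. The capitals mark GGGCGG (the GC box bound by Sp1) and the hypoxia response core, spelled ACGTG in one form and GCGTG in the other, each searched on both strands.
Slc2a1 promoter: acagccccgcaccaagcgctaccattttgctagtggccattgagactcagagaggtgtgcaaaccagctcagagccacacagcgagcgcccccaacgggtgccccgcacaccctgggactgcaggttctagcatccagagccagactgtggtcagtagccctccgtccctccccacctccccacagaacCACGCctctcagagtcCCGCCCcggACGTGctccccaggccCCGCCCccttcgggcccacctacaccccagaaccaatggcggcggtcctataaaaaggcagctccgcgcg

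The window held GGGCGG at 2 places, ACGTG at 1 and GCGTG at 1, with no overlap among them, and CACGTG, the E-box of MYC and USF factors, at 0. Of all 32851 promoter windows of the same length, 35.7% held GGGCGG, while 19.6% had ACGTG, 32.4% had GCGTG and 7.15% had CACGTG; the letters ACGTG also lie within the E-box. Among the other 7 promoters, GGGCGG was found in those of Slc2a6, Slc2a10 and Slc2a13, the core ACGTG in that of Slc2a10, the core GCGTG in those of Slc2a6 and Slc2a8, and none of the 4 motifs in those of Slc2a2, Slc2a9 and Slc2a12.

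Of 12 genes for transcription factors known to act on glucose transporter genes, 0 rose and 1 fell, with a median log2 fold change of 0.06. Over all genes tested, 13.9% were called in either direction, and the counts of the lists that follow are to be read against that share. The fall was that of Epas1, which encodes the hypoxia factor HIF-2 alpha (-5.79, SE 1.10, adjusted p 4.35e-06, DESeq2 Wald test, in the authors' deposited table). In the authors' deposited table its partner gene Arnt was not called (-0.81, SE 0.65), nor was Mlxipl (2.43, SE 1.00), the glucose-sensing factor ChREBP, or Myc (1.92, SE 1.03).

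Of 20 tested genes for the trafficking and turnover of glucose transporters, 2 rose and 0 fell (median log2 fold change -0.23). Sort1, the sortilin gene, whose product helps form GLUT4 vesicles, rose by 3.69 (SE 0.67), and Tbc1d4, a Rab regulator of insulin-driven GLUT4 release, by 2.01 (SE 0.68), in the authors' deposited table. Both belong to a route described for GLUT4, whose own gene Slc2a4 was low and not called. The call of Tbc1d4 was lost against a 2-fold change (adjusted p 0.878, Wald test computed here from the deposited values) and at the stricter threshold. Sort1 kept its call under both. Other genes of the list, such as Rab10 (0.21, SE 0.65), Stx4a (-0.38, SE 0.83), Vamp2 (-0.19, SE 0.83) and Lnpep (-0.73, SE 0.67), were not called in the authors' deposited table. A change of the route as a whole was not tested. The authors' deposited table gave no call for Aspscr1, the tether of GLUT4 vesicles (-1.66, SE 0.88), or for Txnip, which promotes removal of GLUT1 from the surface (-1.16, SE 0.67).

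Among 13 genes of insulin and IGF signalling, 1 rose and 0 fell (median 0.33). The rise was that of Irs1, an adaptor of the insulin and IGF1 receptors (3.72, SE 0.68, in the authors' deposited table). Sgk1 (-1.64, SE 0.76) and Pik3cb (-1.26, SE 0.62) had unadjusted p-values under 0.05 in the authors' deposited table but were not called.

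Of 8 tested genes for trapping and release of glucose, 0 rose and 1 fell (median -0.53). In the authors' deposited table Hk1, a hexokinase gene, fell by 2.61 (SE 0.95, adjusted p 0.0450, DESeq2 Wald test). Its call was lost under all 4 alternatives, with an adjusted p of 0.0559 over every gene of the table, 0.0518 where the mean was at least 100 and 0.633 against a 2-fold change, and at the threshold of 0.01. G6pc3, a glucose-6-phosphatase gene, was not called in the authors' deposited table (0.56, SE 0.99), and G6pc2 had no adjusted p.

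Sugar transporter genes outside the family had 1 rise and 1 fall among 8 tested (median -1.46). Slc45a1, a proton-linked sugar carrier, rose by 5.05 (SE 1.26), while the fall was that of Slc5a11, a sodium-linked inositol carrier (-2.55, SE 0.74), both in the authors' deposited table. Slc45a3 was not called in the authors' deposited table (-2.14, SE 0.87), and Slc5a4b had no adjusted p. Of 11 tested genes for other substrates of the family, 1 rose and 0 fell (median 0.41). It was Slc23a1, a sodium-linked carrier of vitamin C (3.43, SE 0.96, in the authors' deposited table). No call was made for Abcg2, a urate exporter (1.48, SE 0.69), Uox, the urate oxidase gene (-3.98, SE 1.83), or Impa2, an inositol phosphatase gene (-1.52, SE 0.78), in the authors' deposited table.

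Some markers of other cell types rose in EpiLSC. In the primitive endoderm list 2 of 5 tested genes rose, Foxa2 and Dab2. The implied levels of its 8 listed genes summed to 312 normalized counts in EpiLSC and 105 in nESC. Foxa2 (143 in EpiLSC, 1.48 in nESC) and Dab2 (121 in EpiLSC, 11.8 in nESC) made up most of the EpiLSC sum. Pdgfra went the other way (13.5 in EpiLSC, 69.9 in nESC) and was not called. Gata6, the defining gene of this list, had a mean of 2.81 in the authors' deposited table. In the fibroblast and feeder list 2 of 5 rose, Thy1 and Dcn, with sums of 272 in EpiLSC and 88.8 in nESC. Thy1 (141 in EpiLSC, 5.83 in nESC) and Dcn (52.6 in EpiLSC, 0.485 in nESC) made up most of the EpiLSC sum. Pdgfrb went the other way (31.2 in EpiLSC, 73.9 in nESC) and was not called. Col1a1 had a mean of 6.07 in the authors' deposited table. Of 6 tested trophectoderm genes 1 rose, Krt18, and 2 fell, Cdx2 and Tfap2c, with sums of 2166 in EpiLSC and 1130 in nESC. Krt18, a keratin gene, had an implied level of 1269 normalized counts in EpiLSC and 43.4 in nESC. Krt8, also a keratin gene, was not called (821 in EpiLSC, 306 in nESC). Krt18 and Krt8 made up most of the EpiLSC sum, so its higher value rested on these keratin genes. Tfap2c went the other way (11.9 in EpiLSC, 671 in nESC) and made up most of the nESC sum. Cdx2 also went the other way, with a log2 fold change of -5.55 (SE 1.42) in the authors' deposited table. Elf5 and Hand1, also of the trophectoderm list, had means of 0.48 and 0.40 in the authors' deposited table. The part of such cells in the values above was not tested.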

How the data were processed

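Strand-specific libraries were made from total RNA of 4 samples after removal of ribosomal RNA, per the labels' protocols. The submitters' processing notes name TopHat2, HTSeq, DESeq2 1.8.2 and the build mm9; the sources used here give neither the annotation nor the strand setting. The authors deposited 1 table: a mean of counts divided by size factors (a signal), log2 fold changes with standard errors, a Wald score, a p-value and an adjusted p. Checked from the values, the score was the fold change over its standard error and the deposited adjusted p equalled a Benjamini-Hochberg adjustment across 16361 genes.

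Calls use the deposited DESeq2 p-values of the authors, and without values per sample no new model was fitted. Tests against a 2-fold change are Wald tests computed here from the deposited fold changes and standard errors, with a Benjamini-Hochberg adjustment. Depth per library is unknown, so precision is given by the standard errors. Implied levels split the mean by the fold change, weighting both states equally. Whole reads were solved from the steps between low means: 100% of 2368 means below 1.5 lay on such sums. Names, gene order and exon lengths came from GENCODE M21 on GRCm38, and 20167 of 20296 IDs had a name. The only genome coordinates given are those of the Slc2a1 promoter window, which are on GRCm38.p6 and not on mm9. Scripts used Python 3.11.15, scipy 1.17.1 and Biopython 1.88. The calling rules were run on simulated fold changes with noise drawn from the deposited standard errors. That run checks the code only, since it takes those standard errors as true, and it is no test of the calls given here.

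All 10 members were named, with up to 2 genes per direction from each of 7 pathway lists by smallest p and 3 genes nearest to a called member. Some items under this rule are not reported here. Members and lists were chosen with earlier results of these data known. Genes beside members, and overlapping genes, were named after their values were seen. Alternatives changed the adjusted genes, the null, the threshold, the length and the weights.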

Additional observations from a re-analysis of the deposited data

How the results depend on the processing

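No paired analysis was possible because the table has no value per sample; leaving out samples, TMM scaling and the cell line as a block were not run for the same reason. The fall of Slc2a3 was called over every gene (adjusted p 0.000572), where the mean was at least 100 (0.000414) and at a threshold of 0.01, but not against a 2-fold change (0.0878), which left 0 of the members fallen. Of 20 alternative values for single members 19 kept their side of the threshold, and the 1 that did not was that of Slc2a3 against a 2-fold change. The other members were not called to begin with and the alternatives were mostly stricter, so their values could hardly have changed sides. Tested against a 2-fold change, 3 genes of the pathway lists rose and 1 fell, in place of 5 and 3; where the mean was at least 100, 3 rose, with low genes left out of the adjustment. Over all genes the calls were 2274, against 1130 beyond a 2-fold change and 1251 where the mean was at least 100. The log2 ratio of the summed level, EpiLSC over nESC, was -2.02 and ran from -1.92 to -2.35 over other lengths and weights and with Slc2a5 and Slc2a7 added. Without Slc2a3, chosen after seeing the data like the added genes and the coding transcript length, it was 0.40. That value rests on Slc2a1, which was not called. The smallest standard error of any tested gene was 0.605, so changes of 2-fold could not be called.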

Other observations

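The window around Slc2a13 also held several called genes, in the other direction. Of its 7 neighbours with an adjusted p, 5 rose and 1 fell in EpiLSC, beside 7.67% rises and 6.23% falls over all genes tested. In order on chromosome 15 the rises were those of Cpne8 (log2 fold change 4.16, SE 0.79), the kinesin gene Kif21a (4.44, SE 0.62), Abcd2 (8.19, SE 1.803), a peroxisomal fatty acid transporter gene, the kinase gene Lrrk2 (2.42, SE 0.84) and Cntn1 (4.19, SE 1.47), as the authors' deposited table gives them. Pdzrn4, at the far end, was the fall (-4.49, SE 1.00) by the authors' deposited table. Slc2a13 itself was not called, on 25 reads. These genes were named after their values were seen.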
